A study of Bos taurus with 4 samples.

Results

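The DNA replication machinery was described here as 45 genes in 8 complexes and functions, from the proteins that mark replication origins to the enzymes that supply deoxynucleotides. The genes were chosen by name, with earlier results of these data known. Of the 45 genes, 43 had a probe on the array: 36 under the platform's own symbol and 7 under an older one (ORC1 to ORC6 and CDC45). GINS2 and RFC1 had no probe with that symbol. The 43 genes held 79 probes of the 43794 on the array, and the brightest one stood for each gene. In all, 42 genes were above background and 41 of them were measured on all 4 arrays, out of 11963 genes measured that way.

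DNA replication starts at origins, which the origin recognition complex (ORC) marks and where CDC6 and CDT1 load the MCM2-7 helicase, a step called licensing that geminin holds in check. In S phase the helicase is activated by CDC45, the GINS complex and MCM10, and polymerases, a sliding clamp, single-strand binding proteins and ligase then copy both strands. The cells of an early embryo divide repeatedly, and before the embryonic genome is active they rely on replication proteins and messages laid down in the oocyte.

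The comparison bears on whether blastocyst transcripts differ with the peripubertal age at which a sire's semen was collected. Bovine blastocysts were made in vitro, from oocytes of slaughterhouse ovaries matured, fertilised and cultured in the laboratory, with semen collected at 16 months of age or at 12 months of age. The design names 4 bulls, each collected at both ages, but does not tie a bull to an array. On each of 4 two-colour arrays, called arrays 1 to 4, RNA of the 16-month group and RNA of the 12-month group were hybridised together, with the 12-month RNA in the Cy5 dye on arrays 1 and 2 and in the Cy3 dye on arrays 3 and 4. The arrays are labelled as biological replicates. The p-values rest only on the spread between these samples that is left after age and dye are fitted, drawn toward the spread of all probes. The SD given beside a mean is that of the 4 ratios, with dye left in. No breed, embryo sex or number of embryos per RNA is given in the labels. All embryos came from in vitro culture and from amplified RNA of whole blastocysts, so that fewer cells of a type and less RNA per cell cannot be told apart.

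Each value below is the log2 ratio of 12 over 16 months on 1 array. A negative value is lower with 12-month semen and a positive value is higher with 12-month semen. The ratios had an SD over probes between 0.289 and 0.402 per array, and the share of probes above the negative controls was between 69.5% and 72.3% in Cy5 and between 62.7% and 66.6% in Cy3. Trophectoderm markers were above background in 9 of 9 cases and inner cell mass markers in 5 of 5. Trophectoderm means ran from -0.20 to 0.04 with a median of -0.02, and inner cell mass means from -0.23 to 0.23 with a median of 0.14. Of the markers of cumulus and granulosa cells, the somatic cells around the oocyte, 2 of 7 were above background, at means of 0.10 and 0.11. Their array medians were 0.36, 0.28, -0.08 and -0.13. Also above background were 3 of 5 primitive endoderm, 3 of 5 sperm and spermatid, 5 of 6 oocyte and 3 of 4 blood markers. Means ran from -0.09 to 0.26 in primitive endoderm and from -0.08 to 0.22 in sperm markers. They ran from -0.19 to 0.33 in oocyte and from -0.06 to 0.42 in blood markers.

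No replication gene passed the test between the ages. At an adjusted p below 0.05 in limma, with p-values adjusted by Benjamini-Hochberg over all 30986 probes, 0 of 41 replication genes were called, against 0% of all probes. The smallest adjusted p was 0.969 among the replication genes and 0.448 among all probes. At an unadjusted p below 0.05, 3 of 41 were lower with 12-month semen, where 2.03% of all genes were, and 0 were higher, where 2.25% of all genes were. The 3 were RRM1, RRM2 and MCM3. Counted in either direction, it was 3 of 41 (7.32%), against 4.28% of all genes. Without array 1 it was 0, against 2.21% of all genes, and without array 2 it was 4 (9.76%), against 1.69%. Without array 3 it was 6 (14.6%), against 7.45%, and without array 4 also 6 (14.6%), against 17.8%. The share over all genes thus moved with the array left out, and without array 4 or array 1 the members' share was below it.

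Counted by direction, 26 of 41 replication genes (63.4%) had a mean ratio below 0, against 49.6% of all genes. A total of 7 of 41 (17.1%) were lower with 12-month semen on all 4 arrays, against 5.53% of all genes. By the brightest probe they were MCM3, ORC2, GMNN, CDC45, MCM10, RRM1 and TYMS. Further probes of ORC2 and of TYMS each crossed 0. The brightest probes of MCM2 and FEN1, 2 of 41 (4.88%), were higher on all 4 arrays, against 4.64% of all genes. The members' medians were -0.20, -0.08, -0.04 and -0.04 on arrays 1 to 4, and all genes' medians were -0.01, 0.02, -0.02 and 0.00. The mean of the 4 array medians was -0.09 ± 0.08 for the replication genes and 0.00 ± 0.02 for all genes (SD, n = 4). The median was furthest below 0 on array 1, and the members' excess below 0 was smallest on arrays 3 and 4.

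**Figure D1:**
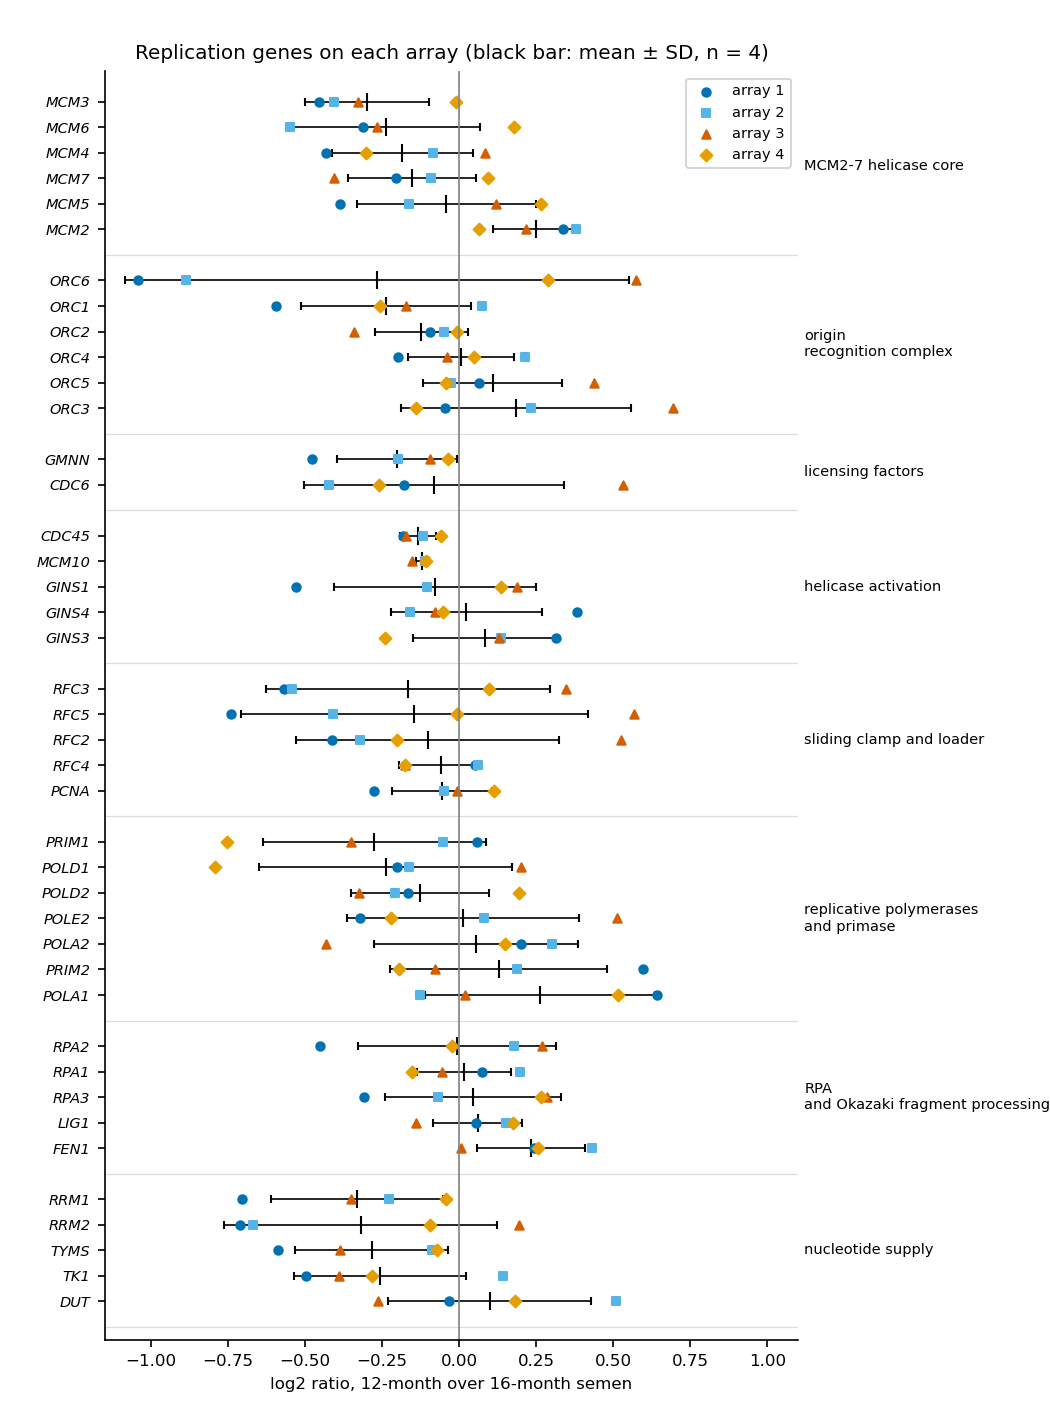
Log2 ratio of 12 over 16 months (horizontal axis) for each of the 41 replication genes, grouped by complex, with 1 symbol per array and a black bar for the mean ± SD over 4 arrays. The 5 genes of nucleotide supply lie mostly left of 0, and ORC6 has the widest spread.

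The MCM2-7 helicase is a ring of 6 related proteins that unwinds DNA ahead of the fork. Its MCM3 subunit had ratios of -0.46, -0.41, -0.33 and -0.01 on arrays 1 to 4, a mean of -0.30 ± 0.20 (SD, n = 4) with an unadjusted limma p of 0.035 and an adjusted p of 0.969. The first 3 arrays lay together and array 4 was near 0. MCM2, another subunit of the ring, went the other way with 0.34, 0.38, 0.22 and 0.06, a mean of 0.25 ± 0.14 (unadjusted limma p 0.061). This probe was higher with 12-month semen on every array, least on array 4. A second MCM2 probe, measured on arrays 1 to 3 only, had 0.22, 0.05 and -0.26, a mean of 0.0032 ± 0.25, and was below 0 on array 3. The remaining subunits MCM4, MCM5, MCM6 and MCM7 had means of -0.18, -0.04, -0.24 and -0.15, and each crossed 0 on at least 1 array. In all, 5 of 6 subunits had a mean below 0, and the array medians of the ring were -0.35, -0.13, -0.09 and 0.08. The brightest MCM2 probe and the MCM3 probe had opposite signs on every array, but the second MCM2 probe and MCM3 were both below 0 on array 3.

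The origin recognition complex is the platform on which licensing takes place. ORC2 had ratios of -0.10, -0.05, -0.34 and -0.01, a mean of -0.12 ± 0.15 (unadjusted limma p 0.339), below 0 on all 4 arrays but by less than its spread. The other ORC2 probes, with means of -0.17 ± 0.65 and 0.06 ± 0.33, each crossed 0. ORC6 had -1.04, -0.89, 0.57 and 0.29, a mean of -0.27 ± 0.82 (unadjusted limma p 0.055). It was low on the arrays with 12-month RNA in Cy5 and high on those with it in Cy3, and its dye coefficient, the part of the log2 Cy5 over Cy3 ratio that did not turn with age, was -0.70. The limma p of ORC6 takes that part out of the spread, with a fitted standard error of 0.12, whereas the SD of 0.82 includes it. Dye orientation and the embryos that happened to be on arrays 1 and 2 or on arrays 3 and 4 cannot be told apart. The spread of ORC6 was the widest of the 41 genes. ORC1, ORC3, ORC4 and ORC5 had means of -0.24, 0.19, 0.01 and 0.11, and ORC3 reached 0.69 on array 3. Of the 6 subunits 3 lay below 0 and 3 above.

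Licensing is completed by CDC6 and CDT1 and limited by geminin (GMNN), which binds CDT1. GMNN had ratios of -0.48, -0.20, -0.09 and -0.04, a mean of -0.20 ± 0.20 (unadjusted limma p 0.127). It was below 0 on all 4 arrays, furthest on array 1. CDC6 had -0.18, -0.42, 0.53 and -0.26, a mean of -0.08 ± 0.42, with array 3 opposite to the rest. CDT1 had no value on array 4, where its spot was marked as ignored, and gave -0.20, -0.16 and -0.28 on the other arrays. It is left out of the counts over 41 genes.

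Helicase activation turns the loaded ring into a moving helicase. CDC45, which travels with the helicase, had ratios of -0.18, -0.12, -0.17 and -0.06, a mean of -0.13 ± 0.06 (unadjusted limma p 0.284). MCM10, which acts in the activation step, had -0.11, -0.11, -0.15 and -0.11, a mean of -0.12 ± 0.02 (unadjusted limma p 0.325). These genes had the smallest spreads of the 41. limma draws each gene's spread toward that of all probes, and with it the 95% interval of MCM10 ran from -0.38 to 0.14. GINS1, GINS3 and GINS4, subunits of the GINS complex, had means of -0.08, 0.08 and 0.02. The array medians of the 5 genes, -0.11, -0.11, -0.08 and -0.06, had the least spread of any complex here.

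The sliding clamp PCNA tethers polymerases to DNA, and the RFC complex loads it. PCNA had ratios of -0.28, -0.05, -0.01 and 0.11, a mean of -0.05 ± 0.16 (unadjusted limma p 0.657). RFC3 had -0.57, -0.54, 0.35 and 0.10, a mean of -0.17 ± 0.46 (unadjusted limma p 0.194), low on arrays 1 and 2 and above 0 on arrays 3 and 4. RFC5 had -0.74, -0.41, 0.57 and -0.01, and RFC2 had -0.41, -0.32, 0.53 and -0.20. RFC4 ran the other way, at 0.05, 0.06, -0.18 and -0.18. The dye coefficients of RFC2, RFC3 and RFC5 were -0.26, -0.39 and -0.43. All 5 genes had means below 0, the lowest at -0.17, while the array medians were -0.41, -0.32, 0.35 and -0.01, and for all but RFC4 the mean of arrays 3 and 4 was above 0.

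Polymerase alpha with primase starts each new strand, and polymerases delta and epsilon extend it. PRIM1, the catalytic primase subunit, had ratios of 0.06, -0.05, -0.35 and -0.75, a mean of -0.28 ± 0.36 (unadjusted limma p 0.055). It was near 0 on arrays 1 and 2 and low on arrays 3 and 4. POLD1, the catalytic subunit of polymerase delta, also had its lowest value, -0.79, on array 4, with a mean of -0.24 ± 0.41. POLD1 was the dimmest of the 41 genes, at a log2 brightness of 7.23, and above background in 3 of 4 signals at each age. Its 12-month level on array 4 was 6.84, so the value of -0.79 lies near the floor. POLA1, the catalytic subunit of polymerase alpha, had 0.64, -0.13, 0.02 and 0.52, a mean of 0.26 ± 0.37. The accessory subunits POLA2, PRIM2, POLD2 and POLE2 had means of 0.05, 0.13, -0.13 and 0.01. Dimmer POLD2 probes had means of -0.0028 ± 0.36 and 0.26 ± 0.26 (unadjusted limma p 0.985 and 0.061). The probe at 0.26 was above 0 on all 4 arrays, opposite to the brightest. POLE, the catalytic subunit of polymerase epsilon, was not well above background in any of its 8 channel signals and was not tested. Of the 7 genes measured, 3 lay below 0 and 4 above.

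RPA coats the single strands, and FEN1 and LIG1 trim and seal Okazaki fragments. FEN1 had ratios of 0.24, 0.43, 0.0045 and 0.26, a mean of 0.23 ± 0.18 (unadjusted limma p 0.085). It was above 0 on every array, though only just on array 3. Its log2 levels were 8.89, 8.86, 9.03 and 8.82 with 16-month semen and 9.13, 9.30, 9.04 and 9.08 with 12-month semen, and these did not overlap, by a gap of 0.0045. FEN1 was 1 of 41 replication genes (2.44%) without overlap, against 0.928% of all genes. When spots were summarised by mean rather than median pixels, the mean ratio of FEN1 was -0.05. LIG1, RPA1, RPA2 and RPA3 had means of 0.06, 0.02, -0.01 and 0.04. This was the complex with a positive median on every array, at 0.06, 0.18, 0.0045 and 0.17.

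Nucleotide supply had the lowest mean of array medians, at -0.27 ± 0.24, and the lowest median of the 8 groups on arrays 1 and 3 but not on arrays 2 and 4. Ribonucleotide reductase makes deoxynucleotides from ribonucleotides, and RRM1 and RRM2 are its large and small subunits. RRM1 had ratios of -0.70, -0.23, -0.35 and -0.04, a mean of -0.33 ± 0.28 (unadjusted limma p 0.034, 95% interval -0.63 to -0.03). Its log2 levels were 12.7, 12.9, 12.5 and 12.6 with 16-month semen and 12.0, 12.7, 12.2 and 12.5 with 12-month semen. On each array the 12-month level was the lower, but the groups overlapped. RRM2 had -0.71, -0.67, 0.19 and -0.09, a mean of -0.32 ± 0.44 (unadjusted limma p 0.026). It was far below 0 on arrays 1 and 2, above 0 on array 3 and near 0 on array 4, and its dye coefficient was -0.37. The limma p of RRM2 takes that part out of the spread, with a fitted standard error of 0.12, whereas the SD of 0.44 includes it. Thymidylate synthase (TYMS), which makes dTMP, had -0.59, -0.09, -0.39 and -0.07, a mean of -0.28 ± 0.25 (unadjusted limma p 0.063), below 0 on all 4 arrays but near 0 on arrays 2 and 4. Thymidine kinase (TK1), which salvages thymidine, had -0.50, 0.14, -0.39 and -0.28, a mean of -0.26 ± 0.28. DUT, which breaks down dUTP, had a mean of 0.10 ± 0.33 and was the exception. The array medians of the 5 genes were -0.59, -0.09, -0.35 and -0.07, below the medians of all genes on each array. The median over the 5 genes was -0.28 with all arrays, -0.16 without array 1 and -0.41 without array 2. Without array 1 the values of RRM1, TYMS and TK1 were -0.21, -0.16 and -0.10.

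**Figure D2:**
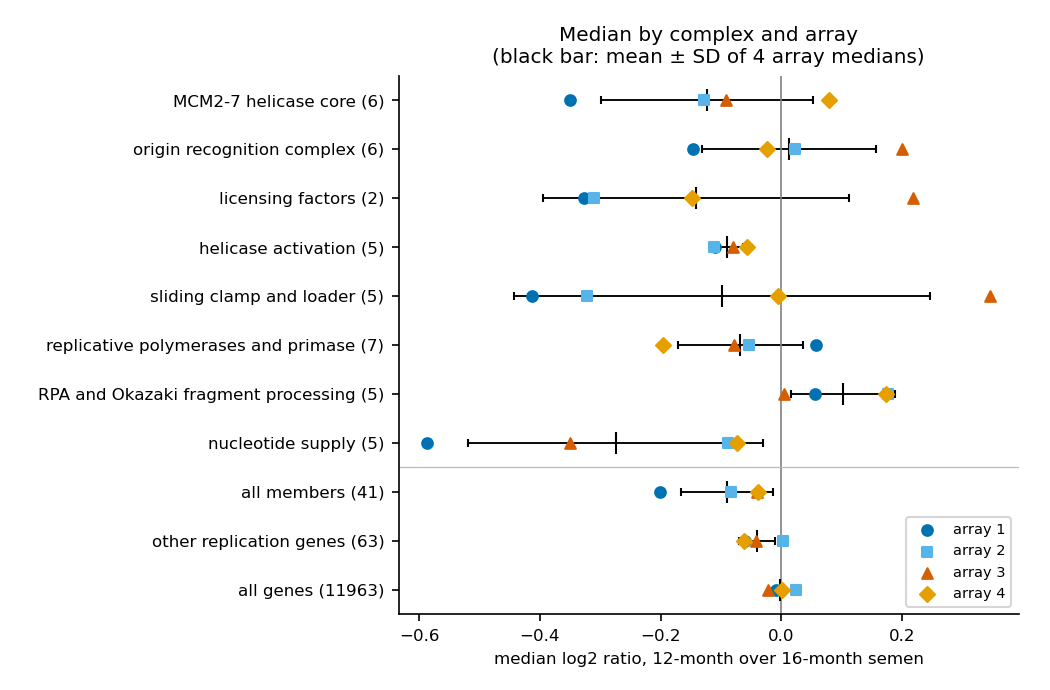
Median log2 ratio of 12 over 16 months (horizontal axis) of each complex on each array, with the number of genes in brackets and a black bar for the mean ± SD of the 4 array medians. Nucleotide supply had the lowest mean of array medians at -0.27, RPA and Okazaki fragment processing the highest at 0.10, and all genes lay near 0.

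The 2 dye orientations agreed poorly over the replication genes. In all, 14 of 41 genes (34.1%) were below 0 in the mean of both orientations, against 21.6% of all genes, and 7 of 41 (17.1%) were above 0 in both, against 22.0% of all genes. Another 12 were below 0 on arrays 1 and 2 and above 0 on arrays 3 and 4, and 8 were the reverse. Across the 41 genes the means of the orientations had a Pearson r of -0.19, against -0.22 over all genes, as a description across genes that are not independent replicates. Arrays 1 and 2 alone had r = 0.60 across the replication genes and 0.35 across all genes. Arrays 3 and 4, which also share a dye orientation, had r = -0.02 across the replication genes and -0.08 across all genes. Among the replication genes every pair other than arrays 1 and 2 had an r of 0.03 or less. The Cy5 over Cy3 ratio, which follows dye and not age, had the same sign on all 4 arrays for 8 of 41 replication genes (19.5%) against 18.6% of all genes.

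**Figure D3:**
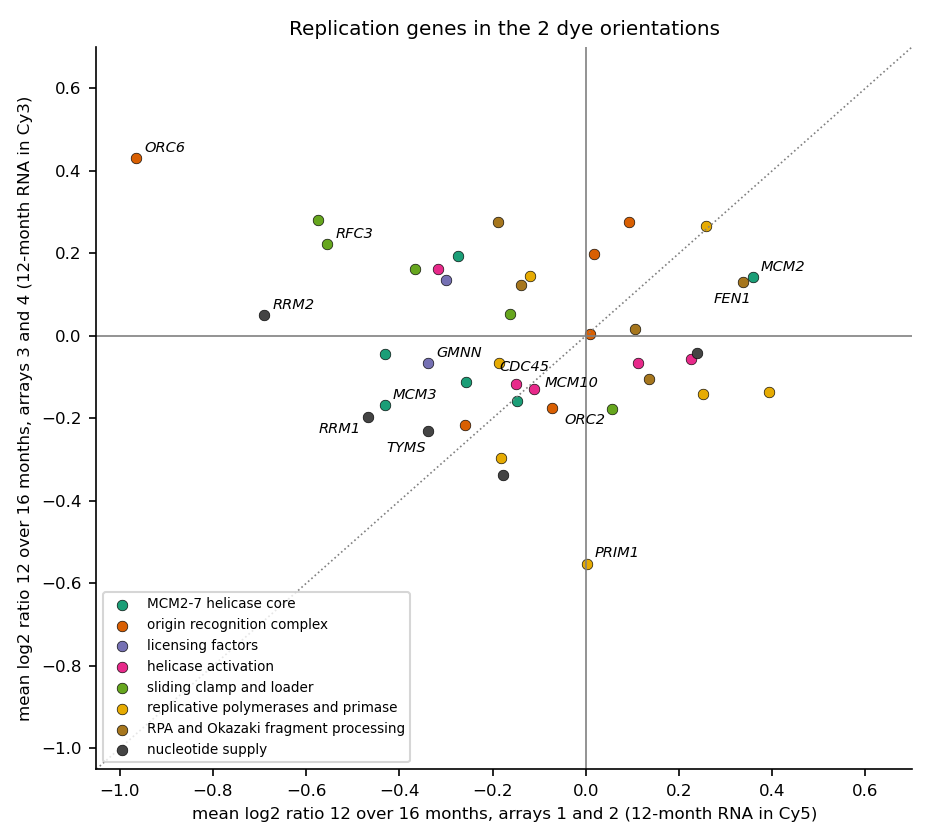
Mean log2 ratio of 12 over 16 months on arrays 1 and 2 (horizontal axis) against that on arrays 3 and 4 (vertical axis), 1 point per replication gene coloured by complex, with a dotted line for equal values. ORC6, RRM2 and RFC3 lie at upper left, away from the dotted line, and MCM2 and FEN1 at upper right.

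The replication genes were brighter than most genes. Their median log2 brightness was 10.01, against 8.36 for all genes, and 40 of 41 were above background in all 8 channel signals. The 20 brighter members had a median ratio of -0.14 with 16 of them below 0, and the 21 dimmer had 0.01 with 10 below 0. On array 1 the medians were -0.44 in the brighter and 0.05 in the dimmer members, and on array 3 they were 0.10 and -0.08. The rank correlation of ratio with brightness was -0.65, -0.28, 0.21 and 0.23 on arrays 1 to 4 for the 41 genes and -0.11, -0.05, 0.01 and 0.03 for all genes, as a description across genes. Genes of all kinds with a log2 brightness of 12 or more had a median of -0.10 on array 1, where the 9 members that bright had -0.48. A mean ratio below 0 was found for 52.4% of all genes that bright and 7 of 9 members. At a brightness of 10 to 12 it was 54.5% and 10 of 12 members. At 8 to 10 it was 46.6% and 7 of 17, and below 8 it was 48.7% and 2 of 3. The part of brightness in the ratios was not tested.

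**Figure D4:**
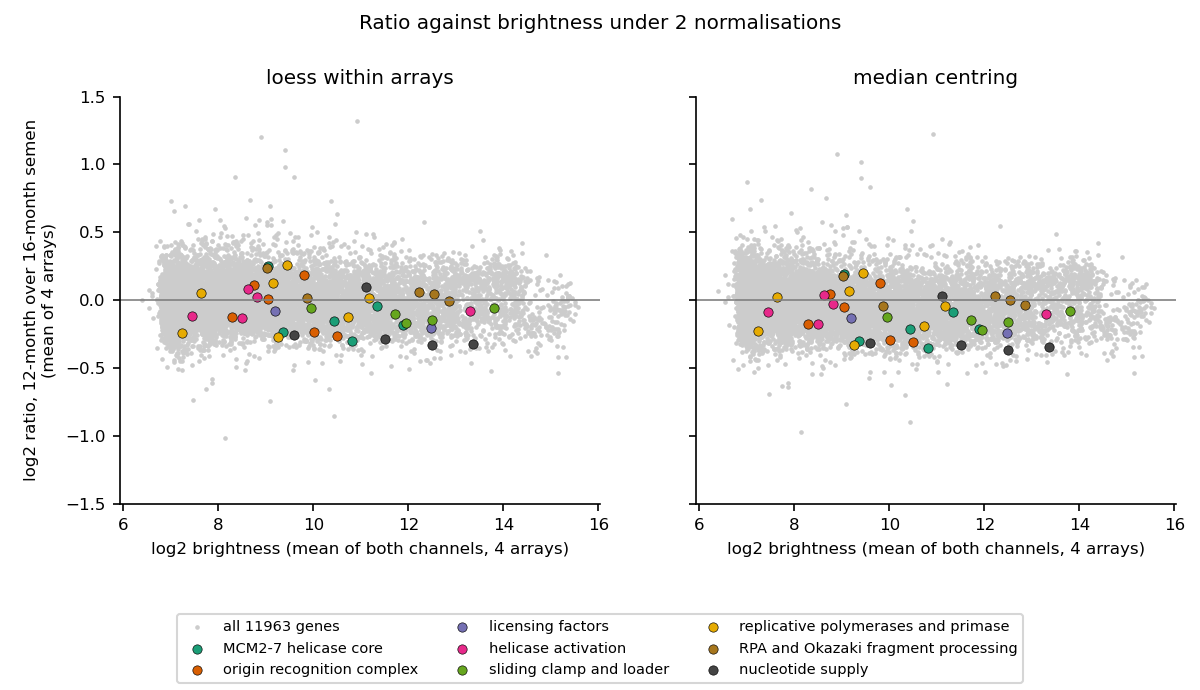
Mean log2 ratio of 12 over 16 months over 4 arrays (vertical axis) against log2 brightness (horizontal axis) for all 11963 genes in grey and the 41 replication genes in colour, with loess normalisation at left and median centring at right. The median of the replication genes was -0.08 with loess and -0.12 with median centring.

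For 13 genes more than 1 probe was measured on all 4 arrays, MCM2 with its second probe on 3 arrays not among them, and the probes of 1 gene often differed. In 5 of the 13, all probes had the same sign of mean ratio: RRM2, TYMS, GINS1 and ORC6 had every probe below 0, and DUT had every probe above 0. A shared sign did not mean like values. The second brightest ORC6 probe had a mean of -0.02 ± 0.20 and a dye coefficient of -0.06. The third ORC6 probe had -0.23 ± 0.39 and 0.26. RRM2 had 4 probes with means between -0.32 and -0.10. The third of them in brightness had -0.32, -0.32, -0.14 and -0.46 on arrays 1 to 4, a mean of -0.31 ± 0.13 with a dye coefficient of -0.01 and an unadjusted limma p of 0.031, and was below 0 in both orientations. The second brightest RRM2 probe had -0.74, -0.31, 0.24 and 0.41, a mean of -0.10 ± 0.53 with a dye coefficient of -0.43 and an unadjusted limma p of 0.448, and like the brightest it turned sign between orientations. The other TYMS probes had means of -0.01 and -0.07. PCNA had 3 of 4 probes above 0, between 0.08 and 0.17, while its brightest was the one below. RFC5 had 2 of 4 probes below 0, and RFC2 had probes at -0.10 and 0.27. The dimmer RFC2 probe, at 0.27 ± 0.15, was above 0 on all 4 arrays. Its log2 brightness was 6.95, and it passed the filter mainly through the 12-month signals. Of these 4 of 4 were above background, against 1 of 4 with 16-month semen.

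**Figure D5:**
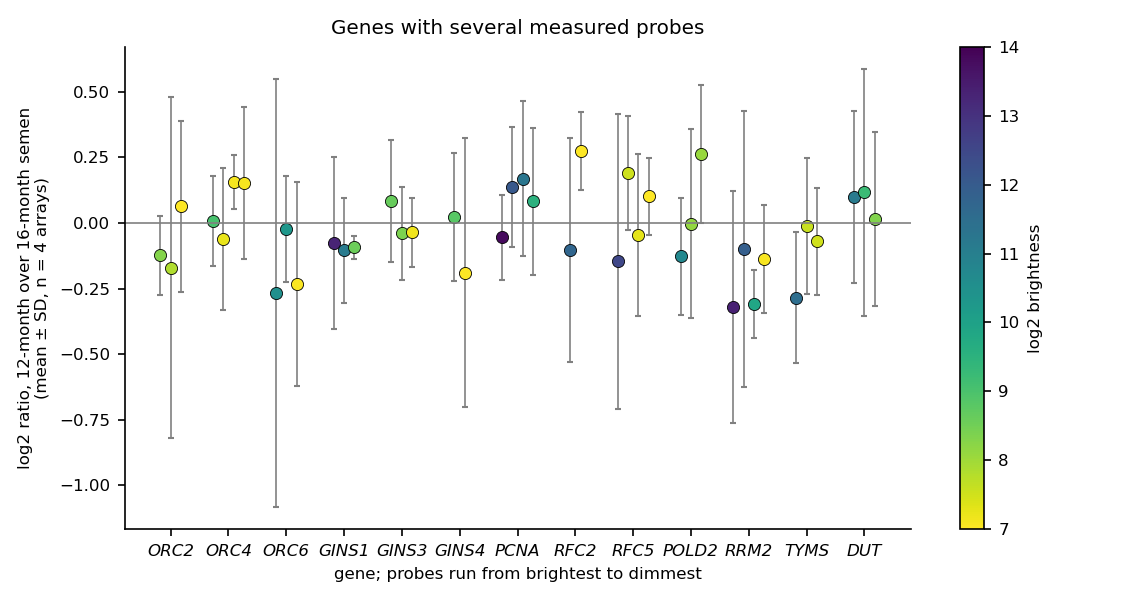
Mean log2 ratio of 12 over 16 months ± SD over 4 arrays (vertical axis) for each measured probe of the 13 genes with several probes measured on all 4 arrays, ordered within a gene from brightest to dimmest and coloured by log2 brightness. All 4 RRM2 probes lie below 0, and the probes of PCNA, RFC5, RFC2 and POLD2 fall on both sides of it.

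Genes that act with the machinery but lie outside the 45 were described by the same test. Of 72 such genes in 7 lists, 63 were measured, 36 with a mean below 0 and 27 above, with a median of -0.025. None passed the adjusted threshold, and 3 of 63 had an unadjusted p below 0.05, a share near the 4.28% of all genes. CCNA2, cyclin A2, had ratios of -0.57, -0.20, -1.02 and 0.03, a mean of -0.44 ± 0.46 (unadjusted limma p 0.032). E2F3, a transcription factor of S-phase genes, had -0.14, -0.62, -0.30 and -0.14, a mean of -0.30 ± 0.23 (unadjusted limma p 0.048). RECQL4, a helicase at origins, had 0.11, 0.52, 0.20 and 0.31, a mean of 0.29 ± 0.18 (unadjusted limma p 0.048). E2F3 was lower with 12-month semen on all 4 arrays and RECQL4 higher on all 4, whereas CCNA2 was above 0 on array 4. By list, a mean below 0 was found for 7 of 9 fork protection and checkpoint genes and 6 of 8 Okazaki fragment and topology enzymes. It was found for 5 of 8 chromatin assembly genes, 6 of 12 origin firing genes and 5 of 10 E2F and pocket proteins. Other nucleotide supply had 5 of 10, with a median of 0.03, and other polymerase and loader subunits had 2 of 6. Among all genes the share was 49.6%. The list medians lay between -0.08 and 0.08.

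The 95% interval of a replication gene's ratio reached a median of 0.28 to either side of its value, before adjustment over the probes tested. Of the 41 genes, 33 had a mean within 0.25 of 0, a smaller share than the 10838 of 11963 among all genes. The largest mean in size was 0.33, that of RRM1, against 1.32 among all genes.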

How the data were processed

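Total RNA was amplified and labelled chemically, per the labels' protocols. The deposited scanner files give raw spot and background intensity, per the file headers, and the authors' deposited value table gives log2 ratios of Cy5 over Cy3 (r with the loess ratios here between 0.986 and 0.994). limma is named in the submitters' processing notes, without version. On arrays 1 to 4, 13, 10, 64 and 818 spots were marked ignored and set to missing before background correction. Median intensities were corrected by normexp (offset 50) and normalised by loess within arrays, with control spots at weight 0. A probe was tested if above the 95th percentile of 153 negative controls in at least 4 of 8 channel signals. limma 3.58.1 in R 4.3.3 fitted age and dye over all 30986 probes, two-sided, with Benjamini-Hochberg adjustment, and the fit was tested on simulated data. Levels per age were scaled between arrays by Aquantile. The arrays have no count depth, and their number limits precision. All lie on 1 slide, so slide could not be a block. Symbols came from the platform annotation, updated through the RefSeq table of ARS-UCD2.0. Values on every array were given for members with an unadjusted p below 0.05 or 1 sign on all 4 arrays, up to 14, and for the smallest p in each complex, and, chosen after their values were seen, for CDC6, CDT1, PCNA, RFC2, RFC4, RFC5, POLA1 and TK1 and for 1 further MCM2 and 2 further RRM2 probes. Members and lists were chosen with earlier results of these data known.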

Additional observations from a re-analysis of the deposited data

Results flagged for a closer look

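MCM10 on array 3 was marked because 1 of its 4 ratios stood apart from the other three. Its value there was -0.15, while the others lay at -0.11. The whole range of the gene was 0.05, the smallest of the 41, so the distance is small in absolute terms. Chance marks about 1 in 20 groups of 4, and 1 of the 50 results screened was marked.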

How the results depend on the processing

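Under every alternative run, 0 replication genes had an adjusted p below 0.05, and the median ratio stayed below 0. Leaving out 1 array at a time, the median ran from -0.12 to -0.06, the number of members with a mean below 0 from 23 to 31, and the number at an unadjusted p below 0.05 from 0 to 6. It was 0 without array 1 and 6 without array 3 or array 4. The number at an unadjusted p below 0.05 was 3 as reported, 6 with median centring, 1 with no normalisation and 1 with normexp offset 16. It was 6 with no background correction and 5 with mean pixel intensities. With no filter on dim probes it was 6, and with an intensity trend and robust prior it was 0. The share of all genes was not set beside the counts of these alternatives. They are therefore not a result about the replication genes in particular. With no normalisation, the median was -0.18, where the median of all probes was -0.07. With mean pixel intensities, FEN1 turned to -0.052. Keeping ignored spots in the background fit, an alternative chosen after seeing the data, gave 7, again without the share of all genes. That processing lowered the correlation of array 3 with the deposited table to 0.855, against 0.986. The median of helicase activation was -0.14 with no normalisation and -0.11 in the deposited table, and with no normalisation the medians of the polymerases and of RPA and Okazaki fragment processing were -0.10 and -0.05. Leaving out 1 array, the medians of the origin recognition complex, the polymerases, and RPA and Okazaki fragment processing changed sign, and that of nucleotide supply ran from -0.41 to -0.16, TYMS from -0.41 to -0.16 and TK1 from -0.42 to -0.10. Across settings, between 0 and 10 of 41 genes changed the sign of their mean. Over all probes, 385 passed the adjusted threshold without array 4 and 44 without array 3, where 1 residual degree of freedom remains, and 6 with no normalisation. Each array pairs both ages, so the ratios are paired within arrays in every setting, and a further block by number could not be fitted because the dye orientations share no replicate numbers. The cause of these differences was not tested.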
